A study of Caenorhabditis elegans with 3 samples.

Results

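LET-418 peaks in the centre of chromosome II of Caenorhabditis elegans are the 741 peaks of the authors' combined list whose midpoint lay above position 4879000 and at or below 12020000 (WormBase WS220), out of 9187 peaks in the whole list (8.07%). They were chosen by position alone, and the peak score took no part. Chromatin immunoprecipitation followed by sequencing (ChIP-seq) was done in the wild-type strain N2 at the L3 larval stage, raised at 20 °C, with males and hermaphrodites mixed. The 2 ChIP samples, called replicate 1 and replicate 2, share strain, genotype, stage and antibody (rabbit, polyclonal, raised against LET-418), and no mutant or treated group is among the samples. The 1 input DNA sample, of the same strain and stage, was not analysed here. All samples, the input included, were crosslinked for 20 min with EGS and for 10 min with EGS and formaldehyde. Chromatin came from whole larvae, so no peak can be assigned to a tissue, and the labels do not say whether the replicates were separate cultures.

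LET-418 is a worm homologue of Mi-2, an ATPase that moves nucleosomes. It works in the NuRD complex, which joins nucleosome remodelling to histone deacetylation, and in the MEC complex with the zinc-finger protein MEP-1, and it is known for keeping germline genes silent in somatic cells and for a role in vulval development. The autosomes of this worm have a central domain with little meiotic recombination and 2 arms with much more. Centres are dense in broadly expressed and conserved genes, while arms hold more repeats and more methylation of histone H3 at lysine 9.

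Each list gives a start, an end and a score for every peak. No label or header states the scale of the score, which was set by the authors and serves here only to describe peaks within a list. The lists hold no read counts, so depth is unknown, and a longer list cannot be told apart from a more deeply sequenced or better enriched library. Over the whole genome replicate 1 had 16140 peaks and replicate 2 had 9817. No genome or annotation of WS220 was used here, so sites are given by position, without genes or sequences. Peaks along a chromosome are neighbours and not replicates, and with 2 samples in 1 group no test over samples was possible. Intervals on shares are 95% Wilson intervals and cover counting error only.

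The centre of chromosome II was unevenly occupied in every list. Its 7.14 Mb held 741 combined peaks, 1165 replicate 1 peaks and 824 replicate 2 peaks, which are 104, 163 and 115 peaks per Mb. The arms of the same chromosome, together 8.13 Mb, held 87.9 combined peaks per Mb, 165 in replicate 1 and 86.2 in replicate 2. The ratio of centre to arms was therefore 1.18 in the combined list, 0.990 in replicate 1 and 1.34 in replicate 2. The 2 replicates lay on either side of 1, so the direction of this difference depended on the replicate. Counted as covered bases, the ratio was 1.32 in the combined list, 1.05 in replicate 1 and 1.64 in replicate 2.

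The 2 replicates differed less in their number of peaks in the centre than on the arms. Replicate 1 had 1.41 times as many peaks as replicate 2 in the centre. On the left arm the factor was 1.91 (756 and 396 peaks) and on the right arm 1.92 (585 and 305 peaks). The centres of chromosomes III and V, taken between limits at 3722000 and 10340000 on III and at 5897000 and 16550000 on V, gave 1.42 and 1.40. The 3 centres thus gave nearly the same ratio. In density, the centre of II was close to that of III (107 combined peaks per Mb) and above that of V (72.5), and both replicates kept V lowest of the 3 (163, 175 and 120.1 per Mb for II, III and V in replicate 1, and 115, 124 and 85.6 in replicate 2).

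Peaks of the centre were not spread evenly along it. In 14 equal bins of 510 kb, combined density ran from 66.7 to 143 peaks per Mb, with a median of 99.01. The sparsest bin lay from 7939430 to 8449500 and held 34 combined, 61 replicate 1 and 43 replicate 2 peaks. The densest in the combined list and in replicate 1 lay at the right end, from 11509930 to 12020000, and held 73, 119 and 71. Replicate 2 was densest at the left end, from 4879001 to 5389071, where the lists held 68, 101 and 85 peaks. The 2 adjoining bins from 6919287 to 7939429 were also dense, with 69 and 66 combined peaks. The range between bins was 2.20-fold in replicate 1 and 2.43-fold in replicate 2, and the rank order of bins was much the same in both (Spearman's rho 0.81 over 14 bins, a description, since bins share the same libraries). The bin with the fewest peaks was not the same in each list, since both replicates were lowest elsewhere: replicate 1 from 9979715 to 10489786 with 54 peaks and replicate 2 from 10999858 to 11509929 with 35.

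**Figure D1:**
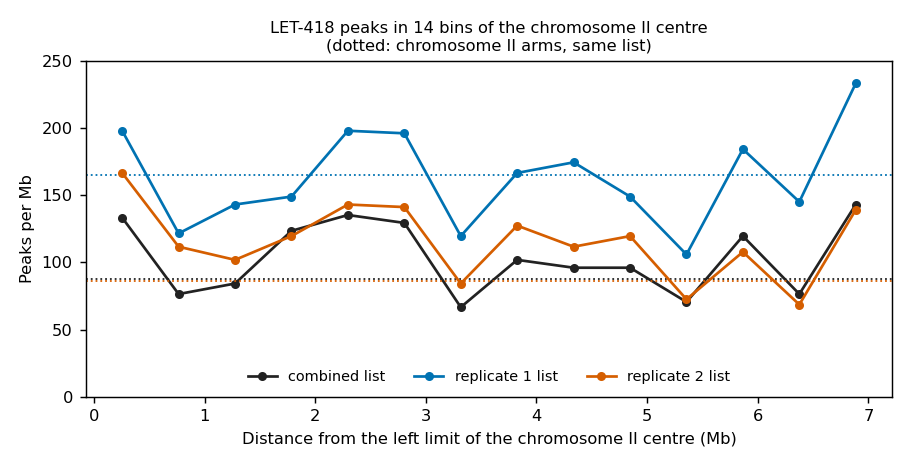
Peaks per Mb in 14 equal bins of the chromosome II centre, against distance from its left limit in Mb, for the combined list and each replicate list; dotted lines give the density of the chromosome II arms in the same list (87.9, 165 and 86.2 per Mb). The combined list runs between 66.7 and 143 per Mb, and replicate 1 lies above replicate 2 in each of the 14 bins.

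The excess of replicate 1 was not even along the centre. The ratio of replicate 1 to replicate 2 peaks was lowest in the bin from 5389072 to 5899143, at 1.09 (62 and 57 peaks), and highest in the bin from 10999858 to 11509929, at 2.11 (74 and 35 peaks). That last bin was the only one of 14 above the ratio of the arms. It also had the lowest share of combined peaks found in both replicates, 76.9%, where the other bins had from 86.3% to 98.0%.

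Most sites of the centre were present in both replicates. By an overlap of at least 1 bp, 688 of the 741 combined peaks (92.8%, 90.8 to 94.5%) overlapped a peak in each replicate, against a background of 90.4% of all combined peaks. A further 44 (5.94%, 4.45 to 7.88%) overlapped a peak in replicate 1 alone, against 8.87% of all, and 9 (1.21%, 0.640 to 2.29%) in replicate 2 alone, against 0.773%. No combined peak of the centre lacked a partner in both, and the same held for all 9187 combined peaks. No label or header says how the combined list was made from the replicates, so how far its making fixes these shares was not tested. The lower bound of the share found in both lay just above the background. On the arms of II it was 85.2% (82.4 to 87.6%), and in the centres of III and V it was 92.8% and 94.0%, so the 3 centres were alike and the arms of II had the lower share. With a reciprocal overlap of 50% in place of 1 bp, the share in the centre of II was 65.3%.

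Sites missing from 1 replicate were narrow and had low scores. The median width was 250.5 bp for the 688 peaks in both, 159.5 bp for the 44 with replicate 1 alone and 156 bp for the 9 with replicate 2 alone. The median combined score was 3.82, 2.88 and 2.27 in the same order. Over all combined peaks the median widths were 241, 165 and 166 bp and the median scores 4.13, 2.97 and 2.19. The whole list thus had the same pattern. Among the narrowest 25% of members, 146 to 182 bp wide, 78.6% (72.2 to 83.9%) were in both replicates, against 98.9% (96.1 to 99.7%) of the widest 25%, 372 to 2360 bp. The shares by width class were not computed over the whole list, so they are not read as particular to the centre. A wider peak also has more bases with which to meet a partner, and the part of this in the result was not tested.

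The 9 sites found with replicate 2 alone lay across the whole centre. They started at 5704506, 5902267, 6887552, 7301702, 7338767, 9605113, 9933932, 9936173 and 11348234. Their widths ran from 146 to 266 bp, and the overlapping replicate 2 peak scored from 2.48 at 5902267 to 7.19 at 7338767. In 7 of the 9 the midpoint of the nearest replicate 1 peak was within 700 bp, with the closest 191 bp away. No replicate 1 peak overlapped these sites, and distances between edges were not measured. The site at 6887552 was 1176 bp from the nearest replicate 1 midpoint, and the one at 7301702 was 13680 bp from it.

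Seen from the replicates, many peaks of the centre had no partner in the combined list. Of the 1165 replicate 1 peaks, 735 (63.1%, 60.3 to 65.8%) overlapped a replicate 2 peak, against 55% over the genome, and 664 (57.0%) overlapped a combined peak, against 51.9%. Of the 824 replicate 2 peaks, 725 (88.0%, 85.6 to 90.03%) overlapped a replicate 1 peak, against 91.2%, and 616 (74.8%) a combined peak, against 78.5%. The centre thus stood above the background in replicate 1 and below it in replicate 2.

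The arms of chromosome II had the opposite pattern. Shared peaks of replicates 1 and 2 numbered 735 and 725 in the centre and 641 and 666 on the arms. These counts were near equal within each part, so the 2 shares of a part differed by about the ratio of its list lengths. That ratio was 1.41 in the centre, 1.91 on the arms and 1.64 over the genome, and the difference between the 2 shares is no second result. What sets the level of each share was not tested. On the arms 47.8% of replicate 1 peaks (45.1 to 50.5%) had a replicate 2 partner. There 95.01% of replicate 2 peaks (93.1 to 96.4%) had a replicate 1 partner. In the centre, 110 replicate 1 peaks and 113 replicate 2 peaks overlapped the other replicate but no combined peak. These had median scores of 4.52 and 3.21, against 8.74 and 5.80 for the shared peaks that did overlap a combined peak, and median widths of 174.5 and 177 bp against 313 and 324 bp. No label or header says how the authors combined the replicates.

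Where both replicates marked a site singly, they placed it at nearly the same position. At 492 members, exactly 1 peak of each replicate overlapped the combined peak and overlapped no other combined peak. The distance between the 2 replicate midpoints had a median of 17.5 bp (quartiles 7.50 and 38.6 bp), and in 402 of the 492 sites (81.7%) it was at most 50 bp. Both replicate peaks had to overlap the same combined peak, which itself limits this distance. Its median was 15.5 bp on the arms of II and 18.5 bp in the centres of III and V, so the closeness was not particular to this part. The median width at the 492 sites was 290.5 bp in replicate 1 and 284.5 bp in replicate 2. Replicate 2 had the wider peak at 245 sites (49.8%). At the 478 such sites on the arms of II the medians were 297 and 242.5 bp, and replicate 2 had the wider peak at 24.9%. In the centres of III and V replicate 2 had the wider peak at 51.5% and 45.5% of such sites, near the share in the centre of II.

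Scores of the 2 replicates went together at these sites. Spearman's rho over the 492 sites was 0.62 and Pearson's r was 0.70, against 0.71 and 0.79 over the 478 sites of the arms. The centre of III gave 0.69 and 0.79, and that of V gave 0.63 and 0.69. These are descriptions across sites of 2 libraries, each of which had to pass the threshold of both lists. At the 492 sites replicate 1 scores ran from 1.51 to 38.8 with a median of 8.625. Replicate 2 scores ran from 1.35 to 31.8 with a median of 5.475.

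**Figure D2:**
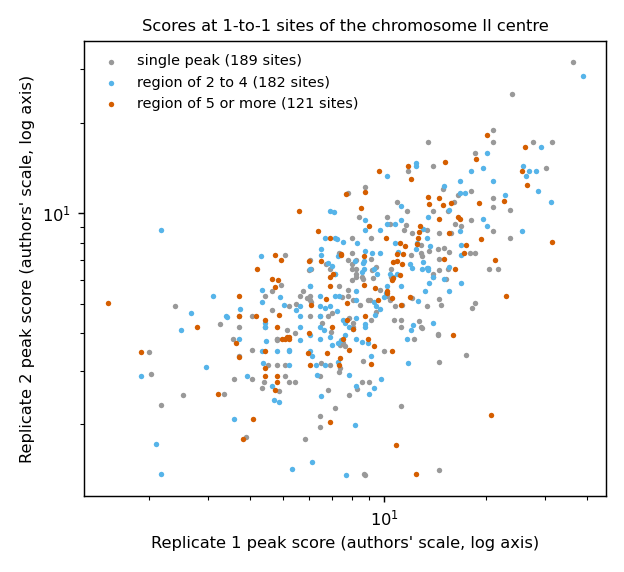
Peak score in replicate 2 against peak score in replicate 1 on log axes, both on the authors' own scale, for the 492 sites of the chromosome II centre marked by 1 peak in each list; each point is a site, coloured by whether its combined peak stood alone (189 sites), in a region of 2 to 4 peaks (182) or in a region of 5 or more (121). The cloud slopes upward (Spearman's rho 0.62), and the 3 colours overlap.

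Members were narrow, with a thin tail of broad peaks. Their median width was 237 bp (quartiles 182 and 371 bp), the narrowest measured 146 bp and the widest 2360 bp. The median was 219 bp on the arms of II and 229 bp over the whole list. Replicate 1 had a median of 230 bp and replicate 2 of 266 bp in the centre. Peaks wider than 1 kb numbered 22 of 741 (2.97%), against a background of 2.05%, and 11 of 715 on the arms. The combined share was 2.40% in the centre of III and 2.07% in that of V. On the arms of III and V it was 2.25% and 2.96%, so the arms of V matched the centre of II. In replicate 2 the broad peaks of the centre of II were a larger share, 45 of 824 (5.46%), against 3.99% of its whole list. The same list had 1.85% on the arms of II, 4.88% in the centre of III and 4.28% in that of V. On the arms of III and V it had 3.98% and 4.54%, so the arms of V stood above the centre of V. In replicate 1 the broad peaks of the centre were 34 of 1165 (2.92%), against 2.435% of its whole list and 2.24% on the arms of II.

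The 10 widest members were between 1227 and 2360 bp, and each of them overlapped a peak in both replicates. The widest, from 6832972 to 6835331, had a combined score of only 2.32, but lay under a replicate 1 peak of 4467 bp and 2 replicate 2 peaks, with best replicate scores of 16.2 and 15.3. The second, from 5900176 to 5902130 (1955 bp), scored 7.21 and was covered by 2 peaks in each replicate. The third, from 10551116 to 10553022 (1907 bp), was at the ceiling of the combined score, 9.03. Of the 10 widest, 8 lay in regions of at least 7 peaks, and the exceptions were the second, in a pair, and the peak from 8482918 to 8484159, in a group of 3.

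High scores were less frequent in the centre than on the left arm. Only 6 of the 741 members (0.810%) were at the ceiling of the combined score, against 2.68% of all combined peaks, 22 of 397 (5.54%) on the left arm of II and 6 of 318 (1.89%) on the right arm. The median combined score was 3.62 in the centre, 4.6 on the left arm and 3.895 on the right arm. The highest 25% of all combined scores took in 20.1% of the members (17.4 to 23.1%), 41.8% of left arm peaks (37.1 to 46.7%) and 25.2% of right arm peaks (20.7 to 30.2%). The intervals of the centre and the left arm did not overlap, while those of the centre and the right arm did.

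The replicate lists gave the same order of the 3 parts. The best-scoring 10% of the replicate 1 list took in 8.67% of its centre peaks (7.19 to 10.4%) and 12.04% of its left arm peaks (9.91 to 14.5%), and these intervals overlapped. The best-scoring 10% of the replicate 2 list took in 9.10% (7.32 to 11.3%) and 14.4% (11.3 to 18.2%). The right arm gave 11.1% and 10.2%, with intervals that overlapped those of the centre. The centres of III and V also had few peaks at the ceiling, 1.13% and 1.17%. One member at the ceiling, singled out after its values were seen, was the lone 206 bp peak from 9718706 to 9718911, which scored 36.3 in replicate 1 and 31.8 in replicate 2, the latter being the highest replicate 2 score of the centre.

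Neighbouring sites of the centre were close together, with long empty stretches between the groups. The 740 distances between neighbouring midpoints had a median of 1268 bp and a mean of 9632 bp, with quartiles of 638 and 9656 bp. The shortest was 193.5 bp and the longest 134 kb. Distances under 1 kb made up 308 of the 740, of which 118 (15.9%) were under 500 bp and 190 (25.7%) from 500 bp to 1 kb. These short distances together spanned 2.53% of the length between the first and last midpoint, while the 38 distances over 50 kb (5.14%) spanned 38.1% of it.

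The median distance was 1528 bp on the left arm and 1719 bp on the right arm in the combined list, longer than in the centre. This order held in replicate 2, with 1344 bp in the centre against 1419 and 1794 bp, but not in replicate 1, with 1326 bp against 1007 and 1417 bp. The difference in median spacing therefore depended on the list. Distances over 50 kb spanned 38.1% of the centre, 61.2% of the left arm and 46.0% of the right arm in the combined list, and 31.7%, 57.2% and 46.0% in replicate 2. In replicate 1 they spanned 18.0%, 43.1% and 12%, so that only the left arm stood above the centre in all 3 lists.

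**Figure D3:**
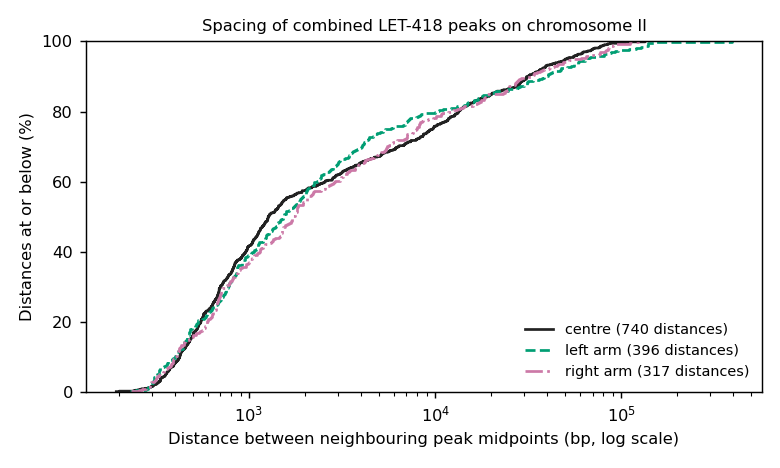
Cumulative share of distances between neighbouring combined peak midpoints, in per cent, against distance in bp on a log axis, for the chromosome II centre (740 distances), the left arm (396) and the right arm (317). The centre curve is highest near 1 to 2 kb, where its median of 1268 bp falls against 1528 and 1719 bp, and the left arm curve is highest near 5 kb and has the longest tail.

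Peaks whose edges were less than 1 kb apart were joined into regions. This put 522 of the 741 members (70.4%, 67.1 to 73.6%) into 140 regions of several peaks, against a background of 66.2%, and left 219 single. The interval reached down nearly to the background. In the combined list the share was 68.8% in the centre of III and 64.1% in that of V. It was 65.9%, 70.2% and 63.0% on the arms of II, III and V, so the arms of III matched the centre of II. Replicate 2 had 71.0% in the centre of II and 67.2% on its arms. In replicate 1 the arms stood higher, with 70.2% and 72.5%. Of the 140 regions, 71 were pairs, 41 held 3 or 4 peaks and 28 held 5 or more. Their median length was 1280 bp, and together they spanned 311.5 kb, 4.36% of the centre. No region crossed a limit of the centre.

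Large regions held a greater share of the peaks in the centre than on the arms of II in the combined list and in replicate 2, and nearly the same share in replicate 1. The 28 regions of 5 or more held 245 members (33.1%), against 25.7% of all combined peaks and 160 of 715 (22.4%) on the arms of II. The share was 35.9% in the centre and 20.7% on the arms in replicate 2, but 33.8% and 32.4% in replicate 1. Over the whole lists it was 26.4% in replicate 2 and 30.2% in replicate 1. In the centres of III and V the combined share was 28.7% and 25.6%. Regions of 10 or more peaks in the combined list numbered 7 in the centre of II, 1 on its arms, 3 in the centre of III and 6 in that of V. In replicate 2 they numbered 7 in the centre of II and 3 on its arms. Replicate 1 had 11 in each, so this contrast also depended on the list.

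Sites in large regions were wider and were more often found in both replicates. Of the 219 single peaks, 190 (86.8%, 81.6 to 90.6%) were in both replicates, 27 had replicate 1 alone and 2 had replicate 2 alone. The whole list had 2684, 409 and 14 single peaks in the same order, so most were in both replicates there too. In regions of 2 to 4 peaks, 258 of 277 members (93.1%, 89.5 to 95.6%) were in both replicates, and in regions of 5 or more 240 of 245 (98.0%, 95.3 to 99.1%). The shares of these 2 classes were not computed over the whole list, so the rise is not read as particular to the centre. A replicate peak can lie over several combined peaks of a large region, so an overlap of 1 bp was easier to meet there. The part of this in the result was not tested. The median width in the 3 classes was 204, 234 and 296 bp, and the share wider than 1 kb was 0.457%, 1.44% and 6.94%. The median score over single peaks, regions of 2 to 4 and regions of 5 or more, formed within each list, was 3.6, 3.6 and 3.86 in the combined list, 6.03, 5.97 and 7.21 in replicate 1 and 4.95, 4.81 and 5.31 in replicate 2. Of the 44 sites with replicate 1 alone, 27 were single peaks (61.4%), against 50.2% over the whole list. Single peaks were 27.6% of the members in both replicates, against 32.3% over the whole list.

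The region with the most members, from 6820499 to 6845022, was 24524 bp long with 30 combined, 21 replicate 1 and 23 replicate 2 peaks. All 30 were present in both replicates. Peaks covered 66.3% of the region in the combined list, 72.2% in replicate 1 and 74.9% in replicate 2. The combined list divided the region more finely than the replicate lists did: a replicate 1 peak from 6826402 to 6830464 (4063 bp) lay over 6 combined peaks, and the next one, from 6830873 to 6835339 (4467 bp, the widest replicate 1 peak of the centre), over 4. In replicate 2 a peak from 6826381 to 6829724 (3344 bp) lay over 4. Combined scores in the region ran from 1.78 to 7.94 with a median of 4, and none was at the ceiling.

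The second region, from 10542696 to 10559983 (17288 bp), held 18 combined, 17 replicate 1 and 12 replicate 2 peaks. Peaks covered 72.5% of it in the combined list, the highest share of the 10 largest, 81.1% in replicate 1 and 81.4% in replicate 2. It held the widest replicate 2 peak of the centre, from 10547763 to 10553052 (5290 bp), which lay over 4 combined peaks. Its highest replicate scores were 34.7 and 20.6, and 1 of its 18 members was at the ceiling. The third, from 5329175 to 5338580 (9406 bp), held 15, 14 and 14 peaks, with a median combined score of 3.86. In these 3 regions all 63 members were present in both replicates. Peaks of each replicate covered at least 72.2% of each of these regions, so an overlap of 1 bp was easily met and nothing was read from this count.

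**Figure D4:**
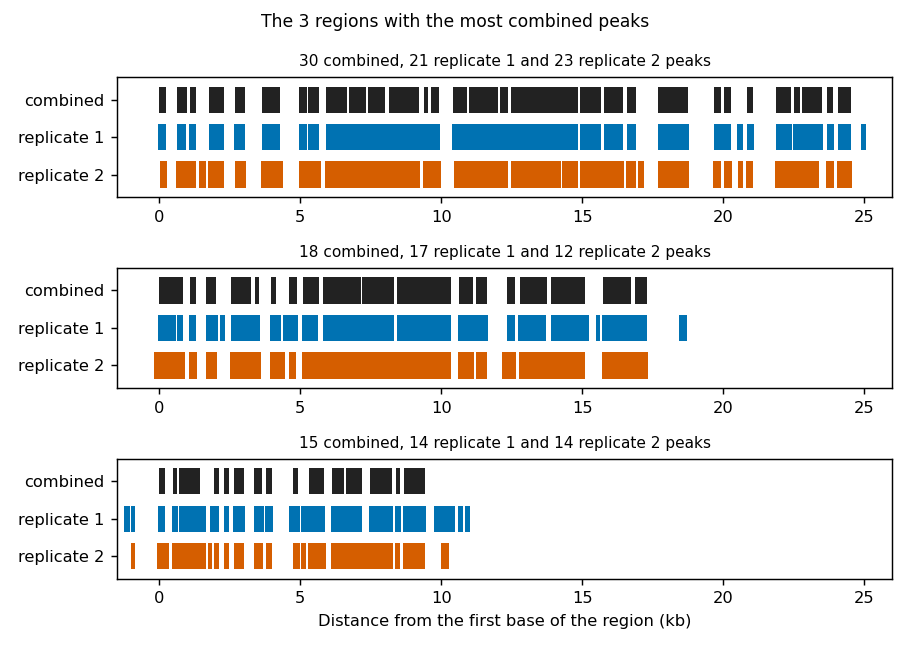
Extent of peaks in the combined list and in each replicate list, against distance in kb from the first base of each of the 3 regions of the chromosome II centre with the most combined peaks; bars are single peaks drawn to scale, on the same axis in all panels, and peaks up to 1.5 kb beyond a region are drawn too. Replicate bars often run through several combined bars, as where 6 combined peaks lie under 1 replicate 1 peak in the top panel.

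The other seven of the 10 largest regions were shorter, from 5400 to 8452 bp. Regions of 11 combined peaks lay from 7336896 to 7345347, from 11746338 to 11753388 and from 7675020 to 7680419, with 11, 8 and 8 replicate 1 peaks and 10, 8 and 10 replicate 2 peaks. The region from 8741359 to 8748341 held 10 combined, 11 replicate 1 and 9 replicate 2 peaks. Regions of 9 combined peaks lay from 6939008 to 6945691, from 7883984 to 7890233 and from 6343133 to 6349054. A further region of 9, from 9601168 to 9606727, was shorter and fell outside the 10 because ties were broken by length. Scores were lowest in the regions starting at 7883984 and 7675020, with medians of 2.15 and 2.31, although all 20 of their members were in both replicates.

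Over all 10 regions, 133 members (17.9%) lay in 98.0 kb, 1.37% of the centre, and 131 of them were in both replicates. The median distance between midpoints within a region ran from 464 to 840.5 bp. Replicate 1 had 120 peaks in these regions and replicate 2 had 113. Since the regions were picked for their combined peaks, most of which overlap both replicates, nothing was read from how close these counts are.

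Between the groups of sites lay long stretches with no combined peak. There were 110 such stretches of at least 20 kb, which made up 71.0% of the centre, and 37 of at least 50 kb (37.2%). In replicate 1 there were 98 and 18 (52.4% and 17.8%), and in replicate 2 there were 108 and 29 (67.3% and 30.8%). The longest ran from 10034976 to 10169064 (134 kb) and held 4 replicate 1 peaks, with scores of at most 3.68, and 0 replicate 2 peaks. Almost the same stretch was the longest in replicate 2, from 10034982 to 10169024. In replicate 1 the longest ran from 9787752 to 9891264 (103.5 kb).

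Of the 10 longest stretches, 3 held no peak in any list. These ran from 9787749 to 9891277 (103.5 kb), from 8229592 to 8329046 (99.5 kb) and from 5966868 to 6045747 (78.9 kb). The other seven were 79.6 to 134 kb long and held 2 to 4 replicate 1 peaks and 0 to 3 replicate 2 peaks each. Together the 10 stretches made up 944 kb, 13.2% of the centre, with 22 replicate 1 and 8 replicate 2 peaks, or 23.3 and 8.48 per Mb against 163 and 115 in the whole centre. The highest scores among these peaks were 10.9 and 11.4, both in the stretch from 8132628 to 8216437. Whether reads can be placed uniquely in these stretches was not tested.

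Among the 10 longest stretches, 3 lay one after another with few peaks between them. From 8132628 to 8441287, 308.7 kb, only 8 combined peaks were found, with 18 replicate 1 and 12 replicate 2 peaks, which are 25.9, 58.3 and 38.9 per Mb. Of the 8, 6 lay within a short span from 8216438 to 8226467 and 1 stood at 8229331. The last, from 8329047 to 8329293 with a score of 2.27, stood alone between 2 stretches of 99.5 and 112 kb and was present in both replicates. This run, picked after its values were seen, directly followed the region from 8124893 to 8132627, which held 8 combined peaks, among them 2 of the 10 widest members.

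**Figure D5:**
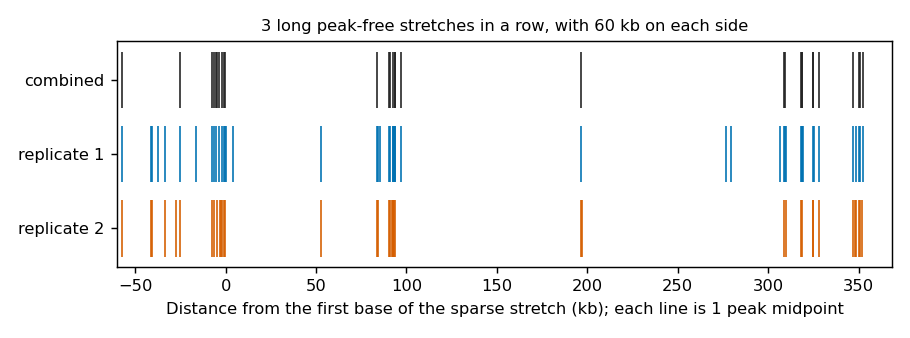
Midpoints of peaks in the combined list and in each replicate list over 3 successive long peak-free stretches of the chromosome II centre, against distance in kb from the first base of the run, with 60 kb on each side; each line is 1 peak. Over 308.7 kb there are 8 combined, 18 replicate 1 and 12 replicate 2 peaks, most of them in 1 short group near 90 kb.

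Read in windows of 49.9 kb, the same contrast appeared. Of 143 windows, 15 (10.5%) held no combined peak, 8 (5.59%) no replicate 1 peak and 13 (9.09%) no replicate 2 peak, and 7 were empty in all 3 lists. The median window held 4 combined peaks and the fullest 29. The fullest 14 windows held 33.7% of the combined peaks, 27.8% of the replicate 1 peaks and 29.5% of the replicate 2 peaks.

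Both limits of the centre fell between peaks. At the left limit the last peaks outside lay from 4855525 to 4855857 and from 4858145 to 4858343, and the first inside from 4882813 to 4883216 and from 4888996 to 4889276. Their scores were 3.6, 1.69, 3.29 and 3.93. At the right limit the last peaks inside lay from 11979683 to 11979872 and from 12010534 to 12010682, with scores of 3.28 and 4.6, and the first outside from 12023043 to 12023599 and from 12026661 to 12026828, with 3.46 and 2.22. Of these 8, the peaks starting at 4858145 and 12010534 were found with replicate 1 alone, and the others in both replicates.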

How the data were processed

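BWA was the aligner and ce10 the build, per the submitters' processing notes. Per the file headers, positions are on WormBase WS220 and peaks come from MACS. Not given in the sources used here are versions, read filters, thresholds and how the input served. The authors deposited a peak score per peak in 1 list for each of the 2 ChIP replicates and in 1 combined list. From these, overlaps (at least 1 bp; a reciprocal 50% and midpoints within 500 bp as alternatives), widths, midpoint distances, regions (edges under 1 kb apart; 500 bp and 2 kb as alternatives) and peak-free stretches were computed with Python 3.11.15, NumPy 2.4.6, pandas 2.3.3 and SciPy 1.17.1, and drawn with matplotlib 3.10.9. The code was tested on simulated lists. Replicate peaks were counted in a stretch when wholly inside it. Arms run from position 1 and up to the furthest peak end among the lists. The limits of the centres of III and V were taken from general knowledge of the recombination map, were not checked against a source, and were applied to WS220 as they stand. The precision of each list cannot be given, since it holds no depth. Sites were named by the number of peaks in a region (ties by length), by width, by the length of empty stretches and by nearness to a limit. The members and lists were chosen with earlier results of these data known.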

Additional observations from a re-analysis of the deposited data

How the results depend on the processing

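With a single replicate's list used instead of the combined one, the centre held 824 to 1165 peaks, the density was 115 to 163 per Mb, the ratio of centre to arms 0.990 to 1.34, the median width 230 to 266 bp, the median midpoint distance 1326 to 1344 bp, the share in regions of several peaks 70.2 to 71.0%, the number of regions of 5 or more peaks 39 to 49 and the longest empty stretch 103.5 to 134 kb. With the combined list restricted to its peaks from the median score upward, fewer by construction, the centre held 337 peaks (47.2 per Mb), a ratio to the arms of 0.936 in place of 1.18, 97.3% of peaks in both replicates, a median width of 289 bp, a median distance of 5596 bp, 46.3% of peaks in regions of several, 6 regions of 5 or more, and a longest empty stretch of 215 kb. The share found in both replicates was 65.3% with a reciprocal overlap of 50%, 89.6% with midpoints within 500 bp and 51.3% with each replicate list restricted in the same way. The share in regions of several peaks was 57.8% when peaks under 500 bp apart were joined and 76.9% at 2 kb. With both limits moved inward by 500 kb the median distance was 1309.5 bp, and the ratio to the arms was 1.05. With combined peaks found in both replicates, a choice made after seeing the data, the ratio was 1.29. The ratio of centre to arms thus stood on either side of 1 across lists and thresholds, and the cause was not tested. No paired analysis was possible because only 1 group has peak lists. Without read counts, depth is unknown.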
